A study of Mus musculus with 26 samples.

Results

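The limb mesenchyme homeobox factors described here are Prrx1, Prrx2, Alx4, Msx1, Msx2, Lmx1b, Shox2, Lhx2 and Lhx9. They were chosen by gene symbol, and all 9 were found among the 24340 symbols of each of the 2 deposited tables. RNA was sequenced from mouse forelimbs of E13.5 embryos, in which Hic1 had been removed in either of 2 ways. In the conventional table, 3 libraries were wild type (Hic1 +/+), 3 were heterozygous (Hic1 +/-) and 3 were knockout (Hic1 -/-). In the conditional table, Prrx1-Cre deleted a floxed Hic1: the 5 controls carried 1 floxed allele and no Cre (PxCre negative; f/+), the 5 heterozygotes carried Cre with 1 floxed allele (PxCre; f/+), and the 7 knockouts carried Cre with both alleles floxed (PxCre; f/f). In the labels the conditional controls are named wild type, although every conditional group carried at least 1 floxed allele. Knockout and control therefore differed in Cre and in floxed allele number as well as in Hic1. Prrx1-Cre is a transgene driven by a regulatory fragment of Prrx1 and acts in limb bud mesenchyme, so cells outside that lineage keep Hic1. The labels do not say whether replicates came from separate embryos or litters, so each p reflects how these libraries spread and no more.

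Homeobox genes encode transcription factors that bind short AT-rich DNA motifs through a homeodomain. In the limb bud, those named here stand between the signals of the apical ectodermal ridge, the polarising region and the dorsal ectoderm and the outgrowth and patterning of the mesenchyme. Prrx1 and Prrx2 are paired-related factors of early limb mesenchyme that act redundantly on skeletal growth, and Alx4 is an aristaless-related factor that restrains anterior Hedgehog signalling. Msx1 and Msx2 are paralogous targets and mediators of BMP signalling. Lmx1b specifies dorsal limb identity, Lhx2 and Lhx9 are its LIM homeodomain relatives of the distal mesenchyme that respond to ridge FGF, and Shox2 is needed for the proximal limb skeleton. HIC1 itself is a zinc finger repressor whose known DNA element centres on the letters GGGCA.

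The upstream sequences of Msx1, Prrx1 and Lhx2 are shown because these genes carried the contrasting patterns reported below: Msx1 had the largest positive fold change among the 9 genes in the conventional knockout, Prrx1 lay furthest below the other libraries in the 1 library that stood apart, and Lhx2 was the most even within the conventional knockout. Sequences are RefSeq windows of build GRCm38.p6 (mm10), read 5' to 3' on the strand of the gene and ending at the base before the transcript start. For Prrx1 the window stops where the longer GENCODE M21 transcript begins, which leaves 190 of its 250 bases. Capitals mark the HIC1 core (GGGCA, or TGCCC on the other strand) and the homeodomain motif TAATTA.
Msx1 (chr5:37824586-37824835, minus strand): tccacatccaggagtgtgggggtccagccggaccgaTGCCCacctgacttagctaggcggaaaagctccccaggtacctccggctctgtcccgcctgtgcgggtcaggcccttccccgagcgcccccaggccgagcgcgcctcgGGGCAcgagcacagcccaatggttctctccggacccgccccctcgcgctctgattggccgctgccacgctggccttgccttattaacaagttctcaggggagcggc
Prrx1 (chr1:163313711-163313900, minus strand): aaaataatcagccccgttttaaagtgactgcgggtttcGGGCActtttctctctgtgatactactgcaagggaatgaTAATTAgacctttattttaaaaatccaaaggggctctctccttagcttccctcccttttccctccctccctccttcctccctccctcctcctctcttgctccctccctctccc
Lhx2 (chr2:38339031-38339280, plus strand): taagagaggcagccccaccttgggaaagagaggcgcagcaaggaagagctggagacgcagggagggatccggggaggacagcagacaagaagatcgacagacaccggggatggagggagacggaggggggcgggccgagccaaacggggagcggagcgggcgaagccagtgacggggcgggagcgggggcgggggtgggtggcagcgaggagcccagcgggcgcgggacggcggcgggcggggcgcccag
The Msx1 window held 2 matches to the core, the Prrx1 window held 1 match to the core and 1 to TAATTA, and the Lhx2 window held neither. Windows of 250 bases were found for 8 of the 9 genes, all but Alx4. The core occurred in 4 of these 8 (Msx1, Prrx1, Prrx2 and Lhx9) and in 47.7% of all 32851 windows searched on both strands. The longer form GGGCANCC, which contains the core, occurred in Prrx2 alone of the 8 and in 4.5% of all windows. TAATTA occurred in Prrx1 and Msx2 and in 4.8% of all windows. The windows of Prrx2, Lhx9 and Msx2 precede a RefSeq start but lie inside the longer GENCODE M21 gene. Their matches are therefore not upstream of every transcript start. These are matches of letters, and no binding was measured.

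Levels are in FPKM, fragments scaled to transcript length and to the mapped fragments of the library, which can be compared between genes within a table. The 2 tables were fitted apart, and levels set side by side across them are not tested. Replicate 1 of the conventional knockout was unlike the remaining 8 libraries of its table: its median correlation with them was 0.869, and the remaining libraries had at least 0.970. Fold changes of the homeobox factors in the conventional knockout against wild type are given with and without that library, some only in a figure. The likeness of other genes in pattern is given only with it. Conventional knockout values of other named genes and gene lists also include it and are not given without it. Hic1, the targeted gene, followed the labels: its mean in the conventional knockout was 1.70 ± 0.748 FPKM (SD, n = 3) against 56.5 ± 7.56 in wild type (n = 3), and in the conditional knockout 4.82 ± 1.13 (n = 7) against 60.6 ± 5.52 in the control (n = 5). The forelimb label matched the limb-type markers: mean Tbx5, the forelimb factor, lay between 50.1 and 66.3 FPKM over the 6 groups, and the hindlimb factors Tbx4 and Pitx1 between 6.27 and 8.07 and between 1.54 and 3.70 FPKM.

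In conventional wild type and the conditional control the 9 genes covered a wide range of levels. Prrx1 was the most abundant, at 132.5 ± 23.0 FPKM in conventional wild type (SD, n = 3) and 128.1 ± 6.78 in the conditional control (n = 5), and only 1.89% and 2.15% of genes stood higher in the 2 tables. Msx1 followed at 88.9 ± 6.73 and 77.1 ± 16.0 FPKM, then Prrx2 at 56.7 ± 6.32 and 68.4 ± 3.84 and Shox2 at 48.7 ± 4.44 and 47.6 ± 11.6. A lower tier held Lmx1b at 29.1 ± 3.57 and 22.3 ± 3.71 FPKM, Lhx9 at 26.3 ± 2.44 and 18.9 ± 7.30, Lhx2 at 22.4 ± 1.36 and 17.6 ± 3.94 and Msx2 at 20.7 ± 1.61 and 21.3 ± 2.31. The libraries of neighbours within this lower tier overlapped, so their order is not resolved. Msx1 and Prrx2 also overlapped in the conditional control, and Prrx2 and Shox2 in conventional wild type. Alx4 was far below the rest, at 3.75 ± 0.252 and 4.65 ± 1.05 FPKM, with 43.2% and 41.4% of all genes above it. Within each pair of paralogues, Prrx1 exceeded Prrx2 and Msx1 exceeded Msx2, whereas Lhx2 and Lhx9 were nearly level.

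**Figure D1:**
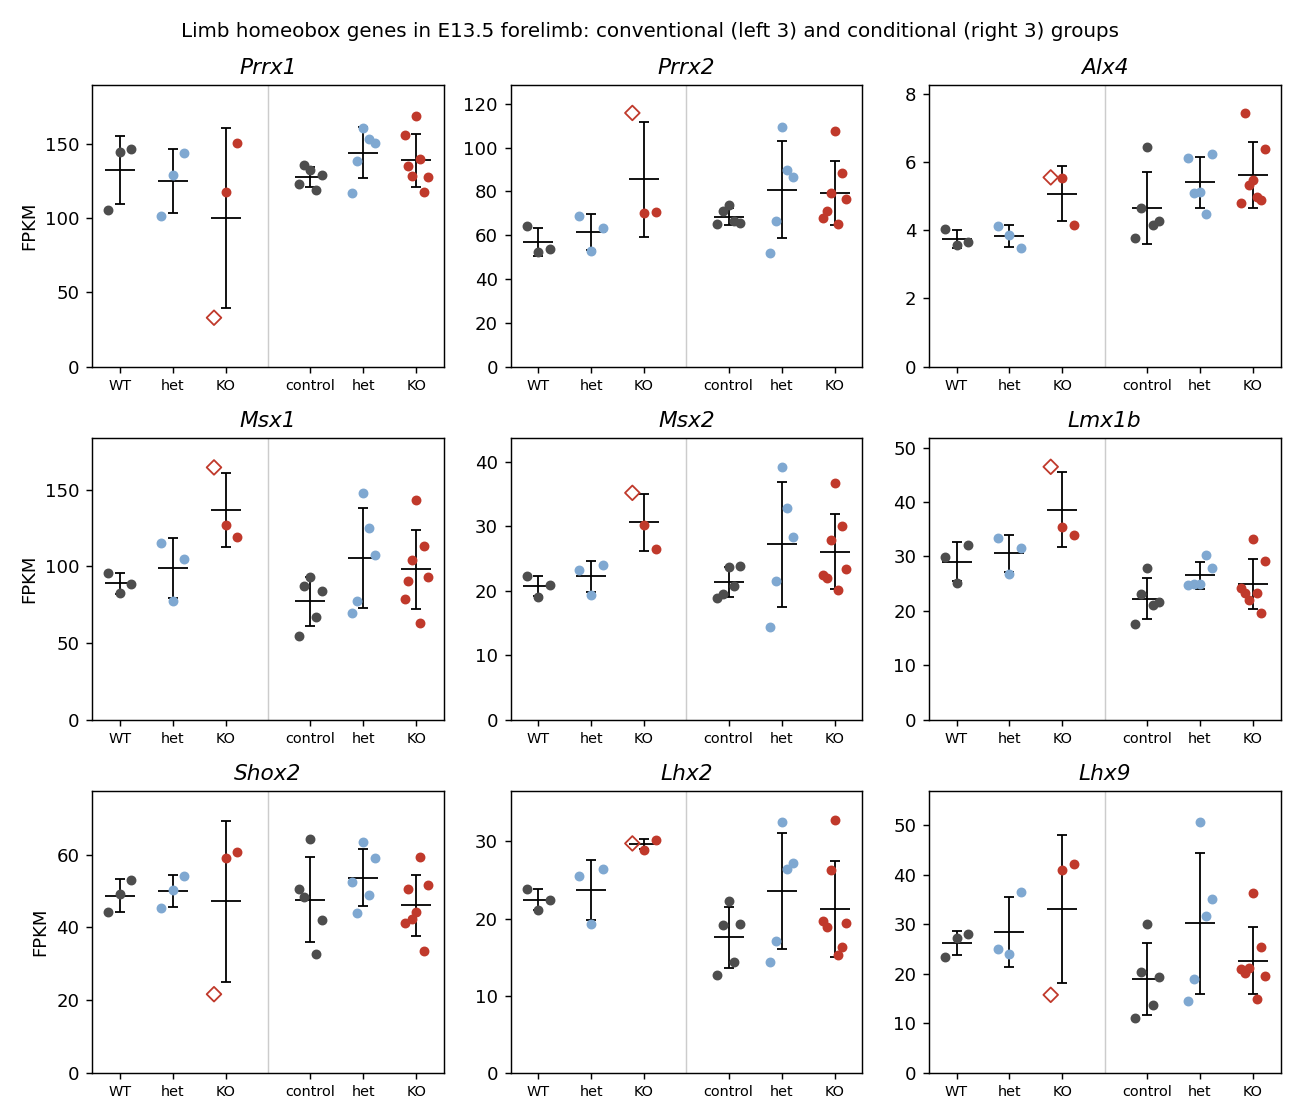
FPKM of each gene in every library (points), by genotype group, with the group mean and SD (horizontal mark and bars); groups left of the grey line are conventional, those right of it conditional, and the open diamond is conventional knockout replicate 1. Every axis starts at 0. Msx1, Msx2, Prrx2, Alx4, Lmx1b and Lhx2 lay higher in all 3 conventional knockout libraries than in the other 6, while the conditional groups overlapped for every gene.

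The first question was whether these genes changed in the conventional knockout. Msx1, Msx2, Prrx2, Lmx1b, Lhx2 and Alx4 were each higher in all 3 knockout libraries than in every wild type and every heterozygous library, by 0.35 to 0.60 on the log2 scale against wild type. Prrx1, Shox2 and Lhx9 were each at their lowest in knockout replicate 1; in the other 2 knockout libraries Shox2 and Lhx9 were above every wild type and heterozygous library, and Prrx1 held both the lowest and the highest value of the libraries with replicate numbers 2 and 3. None of the 9 passed the test over all genes: limma, fitted to log2(FPKM + 1) with genotype groups sharing 1 spread, called 0 of the 9 at a Benjamini-Hochberg adjusted p under 0.05, where it called 3 of 12717 genes tested (0.0236%). In bulk tissue, fewer cells of a type and less RNA per cell cannot be told apart.

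Msx1 stood at 95.8, 82.4 and 88.6 FPKM in the 3 wild type libraries, at 115.1, 77.4 and 104.4 in the heterozygotes and at 164.4, 126.6 and 119.0 in the knockouts. Each knockout library was above the highest of the other 6, and wild type and heterozygote overlapped. The log2 fold change was 0.60 (SE 0.18) for knockout over wild type; limma with Benjamini-Hochberg adjustment gave it a p of 0.508. Its paralogue Msx2 stood at 22.2, 19.0 and 20.9 FPKM in wild type, at 23.2, 19.4 and 24.0 in the heterozygotes and at 35.2, 30.2 and 26.4 in the knockouts. The groups separated in the same way as for Msx1. The log2 fold change was 0.53 (SE 0.14) with an adjusted p of 0.448 in limma, the lowest of the 9.

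Prrx2 stood at 64.0, 52.5 and 53.7 FPKM in wild type, at 68.7, 52.6 and 63.1 in the heterozygotes and at 115.8, 70.2 and 70.5 in the knockouts. Replicate 1 was the highest in each group, and the other 2 knockout libraries, level with each other, exceeded the highest heterozygote by a small margin. The log2 fold change was 0.55 (SE 0.21) and fell to 0.31 without knockout replicate 1. Prrx1, its paralogue, showed the opposite in that library: it stood at 105.9, 144.6 and 146.9 FPKM in wild type, at 101.5, 129.3 and 143.9 in the heterozygotes and at 32.9, 117.7 and 150.6 in the knockouts. The groups overlapped, and replicate 1 was the lowest library of each group. The log2 fold change of Prrx1 was -0.64 (SE 0.49) with all libraries and 0.02 without knockout replicate 1.

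Alx4 stood at 4.03, 3.56 and 3.65 FPKM in wild type, at 4.14, 3.87 and 3.49 in the heterozygotes and at 5.56, 5.53 and 4.15 in the knockouts. The third knockout library exceeded the highest heterozygote by 1 unit of the second decimal, so the separation of Alx4 rests on a very small gap. Alx4 overlaps Ext2, a heparan sulphate polymerase gene on the opposite strand, which stood at 39.2 ± 6.58 FPKM in wild type and 40.9 ± 14.5 in the knockout (n = 3 each). The strand setting of the counting is not stated, so reads of Alx4 and Ext2 cannot be told apart with certainty.

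Among the LIM homeodomain genes, Lmx1b stood at 29.9, 25.1 and 32.1 FPKM in wild type, at 33.4, 26.8 and 31.6 in the heterozygotes and at 46.5, 35.3 and 34.0 in the knockouts. Lhx2 stood at 23.8, 21.1 and 22.4 FPKM in wild type, at 25.5, 19.3 and 26.4 in the heterozygotes and at 29.8, 28.9 and 30.2 in the knockouts. For both genes the knockout libraries were the 3 highest of the table, and for Lhx2 they lay closest together of any of the 9 genes. Their log2 fold changes were each 0.39, with SE 0.16 for Lmx1b and 0.13 for Lhx2, and an adjusted p of 0.596 for each in limma with Benjamini-Hochberg adjustment. Without knockout replicate 1 the value was 0.25 (SE 0.12) for Lmx1b and 0.38 for Lhx2.

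Lhx9 stood at 23.5, 27.2 and 28.1 FPKM in wild type, at 24.9, 23.9 and 36.6 in the heterozygotes and at 15.8, 41.0 and 42.2 in the knockouts. The knockout group thus held the lowest library and the 2 highest. Its log2 fold change was 0.20 (SE 0.35) with all libraries, 0.65 (SE 0.17) without knockout replicate 1, -0.01 without replicate 2 and -0.03 without replicate 3. Shox2 was likewise low in knockout replicate 1 alone: it stood at 44.1, 49.1 and 53.0 FPKM in wild type, at 45.4, 50.4 and 54.2 in the heterozygotes and at 21.6, 59.2 and 60.6 in the knockouts. Its log2 fold change was -0.18 (SE 0.35) with all libraries and 0.30 (SE 0.10) without knockout replicate 1. Shox2 overlaps Rsrc1 on the opposite strand, which stood at 22.2 ± 1.69 FPKM in wild type and 17.7 ± 8.30 in the knockout (n = 3 each), and the same doubt about strand applies.

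Counted together, 6 of the 9 genes were higher in the knockout than in wild type without overlap, where 6.57% of all tested genes were, and 0 of the 9 were lower without overlap, where 7.86% of all genes were. Against the heterozygotes the same 6 genes were higher without overlap (3.72% of all genes). At an unadjusted p under 0.05 in limma, 6 of the 9 passed against wild type (7.06% of all genes) and 4 of 9 against the heterozygotes (4.58% of all genes). The median log2 fold change of the 9 was 0.39 against wild type, beside -0.02 over all genes tested. When knockout replicate 1 was left out, a choice made after seeing the data, 8 of the 9 were higher than wild type without overlap (11.6% of all genes), all but Prrx1. At an unadjusted p under 0.05, 7 of the 9 then passed (10.7% of all genes), and limma called 0 of the 9 and 6 genes in all. With array weights, which let limma give deviating libraries less weight, 6 of the 9 were called (9.33% of all genes): Prrx2, Alx4, Msx1, Msx2, Lhx2 and Lhx9, with log2 fold changes between 0.38 and 0.56.

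The deviation of knockout replicate 1 ran with the GC content of transcripts. Per 10 points of transcript GC, its values rose by 1.04 on the log2 scale relative to the mean of the other 8 libraries. Slopes taken in the same way lay between -0.291 and 0.128 for the other 8 conventional libraries, whose reference includes replicate 1. Those of the conditional libraries lay between -0.109 and 0.096. When genes were cut into 5 equal bins of transcript GC, those in the lowest bin had a median log2 deviation of -1.34 in that library against the mean of the other 8, and those in the highest bin 0.58. The 9 genes fell along this line in part. Prrx1 (transcript GC 43.6%) reached 25.3% of the mean of the other 8 libraries and Lhx9 (42.0%) 50.9%. Prrx2 (63.6%) reached 187%, Msx1 (58.2%) 163%, Lmx1b (57.9%) 150% and Lhx2 (58.5%) 120%. Msx2 did not follow, at 152% with a transcript GC of 48.5%, a content at which the median gene of that library was lowered. Neither did Shox2, at 41.6% with a transcript GC of 49.8%, in a bin whose median log2 deviation was 0.077.

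After a correction for transcript GC and length in each library, also chosen after seeing the data, limma called 0 of the 9 genes and 79 of 12272 genes with a transcript in the annotation. Msx2 kept its 0.53 on the log2 scale (SE 0.11, adjusted p 0.0827) and the value of Lhx9 was 0.59 (SE 0.14, adjusted p 0.0991), both by limma with Benjamini-Hochberg adjustment. For Msx1 the log2 fold change was then 0.31 (SE 0.16), that of Prrx2 0.30 (SE 0.10) and that of Alx4 0.21 (SE 0.10). That of Lmx1b was 0.17 (SE 0.10) and that of Lhx2 0.11 (SE 0.22). Below 0 were Prrx1, at -0.31 (SE 0.24), and Shox2, at -0.22 (SE 0.37). At an unadjusted p under 0.05, 3 of the 9 passed (14.2% of all genes).

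**Figure D2:**
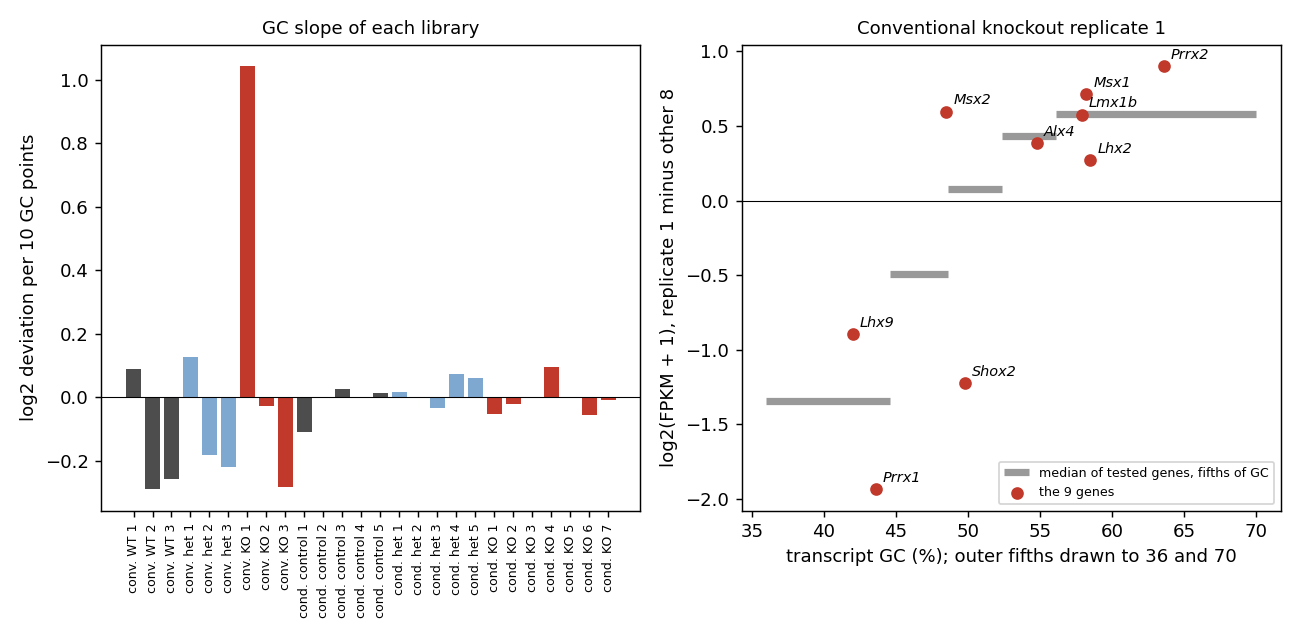
Left, slope of log2(FPKM + 1) deviation on transcript GC in each of the 26 libraries (bars from 0, grey for wild type or control, blue for heterozygote, red for knockout). Right, deviation of conventional knockout replicate 1 from the mean of the other 8 libraries for the 9 genes (red points) against their transcript GC, with the median of tested genes in 5 bins of GC (grey lines). Prrx1, Lhx9 and Shox2 lie below 0 and the other 6 genes above it.

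None of the 9 genes passed the test between the conventional heterozygotes and wild type, with or without the replicate numbers as a block. Between libraries with the same replicate number, the heterozygote was above wild type in all 3 pairs for Prrx2, Msx2 and Shox2 and below it in all 3 for Prrx1. In replicate 2 the margin was small, at 52.63 against 52.52 FPKM for Prrx2 and 19.39 against 19.02 for Msx2. The share of all genes with 3 such pairs was not computed, so nothing is drawn from this count. Log2 fold changes ran from -0.08 for Prrx1 to 0.14 for Msx1, limma called 0 of the 9 (0 of 12717 genes, 0%), and 0 of the 9 passed an unadjusted p under 0.05 (0.37% of all genes). The 95% interval of Msx2 reached from -0.22 to 0.41. It overlapped that of the knockout against the same wild type libraries, from 0.22 to 0.85. Msx2 in the knockout against the heterozygote was at 0.44 (SE 0.14), with an adjusted p of 0.697 in limma. The interval of Prrx1 between heterozygote and wild type reached from -1.21 to 1.05. The width for Prrx1 came from the spread shared with the knockout group: its SE was 0.49 in this fit, 0.34 with the replicate block and 0.17 with wild type and heterozygote fitted alone. Between knockout and heterozygote, limma called 0 of the 9 (1 of 12717 genes, 0.00786%), and log2 fold changes ran from -0.55 (SE 0.49) for Prrx1 to 0.47 (SE 0.18) for Msx1.

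Deletion of Hic1 by Prrx1-Cre was the second comparison, and no gene of the 9 separated the genotypes there. In the conditional knockout, 8 of the 9 genes had a higher fitted mean than in the control, with log2 fold changes from -0.03 for Shox2 to 0.33 for Msx1 and a median of 0.23, beside 0.01 over all genes, of which 53.7% were above 0. Limma called 0 of the 9, where it called 34 of 12918 genes (0.263%), and 0 of the 9 passed an unadjusted p under 0.05 (6.21% of all genes). The libraries of knockout and control overlapped for all 9 genes; 0.689% of all genes did not overlap. Whether the conventional and conditional differences are unequal was not tested, since the tables were fitted apart.

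Msx1 stood at 54.3, 87.4, 93.2, 67.1 and 83.6 FPKM in the 5 controls and at 69.4, 77.6, 147.8, 124.9 and 107.4 in the 5 heterozygotes. In the 7 knockouts it ran from 63.3 through a median of 93.3 to 143.0 FPKM. The heterozygotes held the highest library, and 6 of the 7 knockout libraries were above the control mean. Knockout against control gave a log2 fold change of 0.33 (SE 0.20), with a 95% interval from -0.10 to 0.75 and an adjusted p of 0.934 in limma. Msx2 stood at 18.9, 19.5, 23.7, 20.6 and 23.9 FPKM in the controls, at 14.3, 21.4, 39.2, 32.8 and 28.3 in the heterozygotes, and from 20.1 through 23.4 to 36.6 in the knockouts. Its controls were close together, and the heterozygotes held both the lowest and the highest library of the table. The log2 fold change was 0.26 (SE 0.19).

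Prrx1, whose regulatory fragment drives the Cre, varied least: it stood at 123.3, 135.9, 132.6, 119.2 and 129.3 FPKM in the controls, at 117.4, 138.6, 161.0, 153.6 and 151.1 in the heterozygotes, and from 117.9 through 135.6 to 169.1 in the knockouts. Its highest library was 1.44 times its lowest over all 17. The knockout differed from control by 0.11 on the log2 scale (SE 0.09), with a 95% interval from -0.07 to 0.29. Endogenous Prrx1 RNA was thus measured in the Cre-bearing groups at levels that overlapped the control. Prrx2 stood at 65.1, 70.9, 73.8, 66.3 and 65.7 FPKM in the controls, at 52.0, 66.3, 109.5, 89.6 and 86.5 in the heterozygotes, and from 65.2 through 76.6 to 107.5 in the knockouts. The SD was 22.2 FPKM in the heterozygotes and 14.6 in the knockouts against 3.84 in the controls, a difference in spread that was not tested, and the log2 fold change of the knockout was 0.20 (SE 0.15).

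Alx4 stood at 3.77, 4.65, 6.44, 4.14 and 4.27 FPKM in the controls, at 6.13, 5.10, 5.12, 4.48 and 6.23 in the heterozygotes, and from 4.80 through 5.33 to 7.46 in the knockouts. All 7 knockout libraries were above the control mean, but control replicate 3 exceeded most of them, and the log2 fold change was 0.23 (SE 0.11, adjusted p 0.816 in limma). Shox2 stood at 50.6, 48.4, 64.4, 32.8 and 41.9 FPKM in the controls, at 52.4, 44.0, 63.5, 49.0 and 59.1 in the heterozygotes, and from 33.4 through 44.3 to 59.2 in the knockouts. The lowest and the highest of the 17 libraries for Shox2 were both controls, and its log2 fold change was -0.03 (SE 0.15).

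Lmx1b stood at 17.7, 23.1, 27.9, 21.1 and 21.6 FPKM in the controls, at 24.7, 24.9, 25.0, 30.2 and 27.8 in the heterozygotes, and from 19.7 through 23.4 to 33.2 in the knockouts. All 5 heterozygotes were above the control mean. Lhx2 stood at 12.7, 19.2, 22.3, 14.4 and 19.3 FPKM in the controls, at 14.4, 17.2, 32.5, 26.4 and 27.2 in the heterozygotes, and from 15.3 through 19.4 to 32.8 in the knockouts. Lhx9 was the most variable of the 9, at 11.1, 20.4, 30.0, 13.7 and 19.3 FPKM in the controls, 14.5, 19.1, 50.7, 31.6 and 35.1 in the heterozygotes and from 14.9 through 20.9 to 36.4 in the knockouts. Its highest library was 4.55 times its lowest, and every group held at least 1 library under 15.0 FPKM. The log2 fold changes of knockout against control were 0.16 (SE 0.11) for Lmx1b, 0.24 (SE 0.20) for Lhx2 and 0.28 (SE 0.28) for Lhx9.

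The conditional heterozygotes stood above the control for all 9 genes in the fitted means, by 0.16 for Prrx1 to 0.60 for Lhx9 on the log2 scale, with a median of 0.25 beside 0.00 over all genes, of which 50.5% were above 0. For Lhx9 the SE was 0.30 and the 95% interval ran from -0.03 to 1.22, with an adjusted p of 0.747 in limma. Limma called 0 of the 9 (1 of 12918 genes, 0.00774%, which was Hic1), and 0 of the 9 passed an unadjusted p under 0.05 (5.61% of all genes). Knockout against heterozygote gave values from -0.32 for Lhx9 to 0.04 for Alx4, above 0 for 2 of the 9 and for 51.1% of all genes. Limma called 0 of the 9 (10 of 12918 genes, 0.0774%), and 0 of the 9 passed an unadjusted p under 0.05 (4.63% of all genes). The knockout with both alleles floxed was thus not higher than the heterozygote for most of these genes. These comparisons share the control and heterozygous libraries, so they are not independent of each other.

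Much of the conditional variation lay between libraries of 1 genotype. Heterozygote replicate 3 and knockout replicate 4 were each among the 3 highest of the 17 libraries for 7 of the 9 genes, and control replicates 1 and 4 were each among the 3 lowest for 7 of the 9. Relative to the control means, the median over the 9 genes was 1.60 in heterozygote replicate 3, 1.57 in knockout replicate 4, 0.81 in control replicate 1 and 0.891 in control replicate 4. These libraries also differed in markers of other tissues. The summed FPKM of the 4 connective tissue matrix genes was 516 in heterozygote replicate 3 and 564 in knockout replicate 4, and 1080 and 1150 in control replicates 1 and 4. The summed FPKM of the 5 muscle markers was 582 and 413 in the first pair and 825 and 989 in the second. The summed FPKM of the 6 limb mesenchyme markers was higher in the first pair, at 698 and 723, than in the second, at 541 and 522; none of the 9 genes is in that list. Over the groups, the matrix sum ran from 690 to 1150 in the controls, from 516 to 1100 in the heterozygotes and from 564 to 1120 in the knockouts. In the conventional table it ran from 755 to 798 in wild type, from 635 to 843 in the heterozygotes and from 515 to 577 in the knockouts, so it was lower in every knockout library. The sum of the primitive erythroid markers was 2140 to 2440 FPKM in conventional wild type, 2840 to 2900 in the heterozygotes and 2560 to 5590 in the knockouts. The sum of the neuron markers was 14.5 to 17.2 FPKM in conventional wild type and 14.2 to 15.5 in the heterozygotes. It was 10.1 to 12.7 in the knockouts, lower in every knockout library. Of its 4 markers, Nefl, Nefm and Stmn2 had lower means in the knockout than in wild type. The mean of Tubb3 was higher, at 4.58 against 3.08 FPKM. No marker was at 0 in any library, and the part of these markers in the results was not tested.

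The column names of the conditional table carry letters whose meaning is not stated, and they were unevenly spread over the genotypes. Of the 9 columns with the letters OB, 5 were knockout, 3 heterozygous and 1 control. With the letters NZ there were 2 knockouts, 1 heterozygote and 2 controls. The letters OC were on 2 controls only and OA on 1 heterozygote only. With the letters as a term, OC and OA therefore add nothing to the differences between genotypes. Within NZ, knockout was above control for 8 of the 9 genes, with a median log2 difference of 0.22. Within OB, it was above the single control for 4 of 9, with a median of -0.07. With the letters as a term in limma, knockout against control ran from -0.29 (SE 0.15) for Shox2 to 0.16 (SE 0.15) for Alx4, Msx1 fell to 0.15 (SE 0.22) and Lhx9 to -0.05 (SE 0.29), and 0 of the 9 were called. Within OB the knockouts were below the 3 heterozygotes for 8 of the 9 genes, all but Alx4, with a median log2 difference of -0.28, whereas within NZ the 2 knockouts were above the single heterozygote for 6 of 9, with a median of 0.31. Heterozygote against control also depended on the letters: it was above 0 for 4 of the 9 within NZ (1 library against 2, median -0.06) and for 6 of the 9 within OB (3 against 1, median 0.34). With the letters as a term it was 0.37 (SE 0.32) for Lhx9, 0.06 (SE 0.17) for Prrx2 and -0.0028 (SE 0.17) for Shox2. The higher fitted means of the conditional knockout and heterozygote therefore moved with these letters as well as with genotype. In the conventional table replicate 1 of each group carried the letters CH and the other replicates CL, so the letters were balanced over genotype, and with them as a term limma called 0 of the 9.

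**Figure D3:**
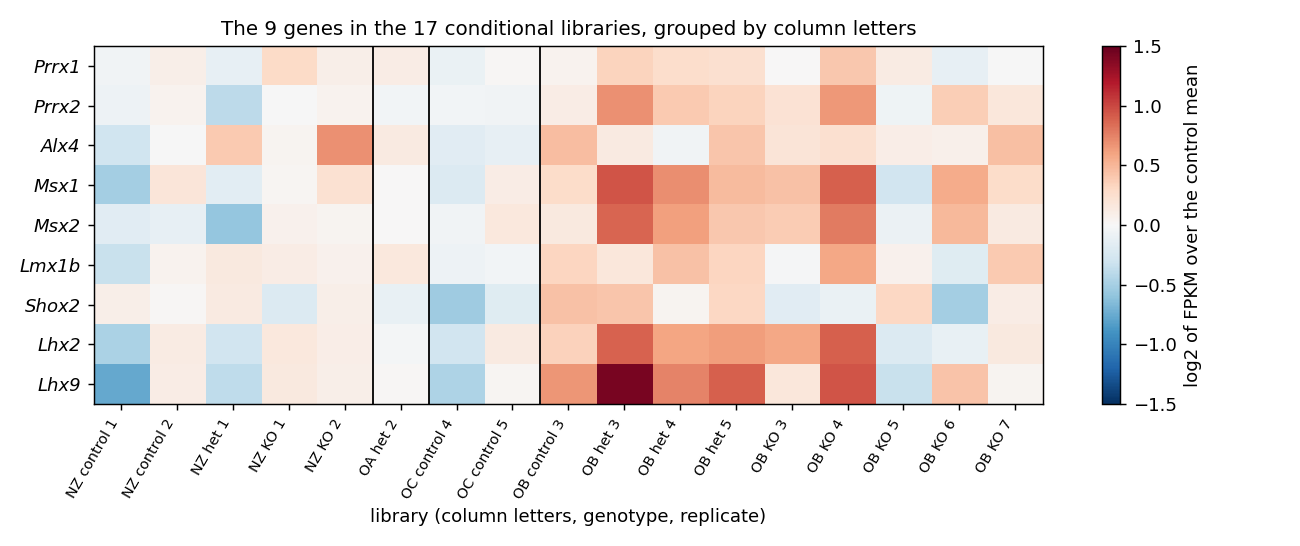
Log2 of FPKM over the mean of the 5 controls (colour) for the 9 genes (rows) in the 17 conditional libraries (columns), ordered by column letters and then genotype, with black lines between letters. Heterozygote replicate 3 and knockout replicate 4, both OB, are red for 8 or more of the genes, and control replicate 1 (NZ) is blue for 8.

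**Figure D4:**
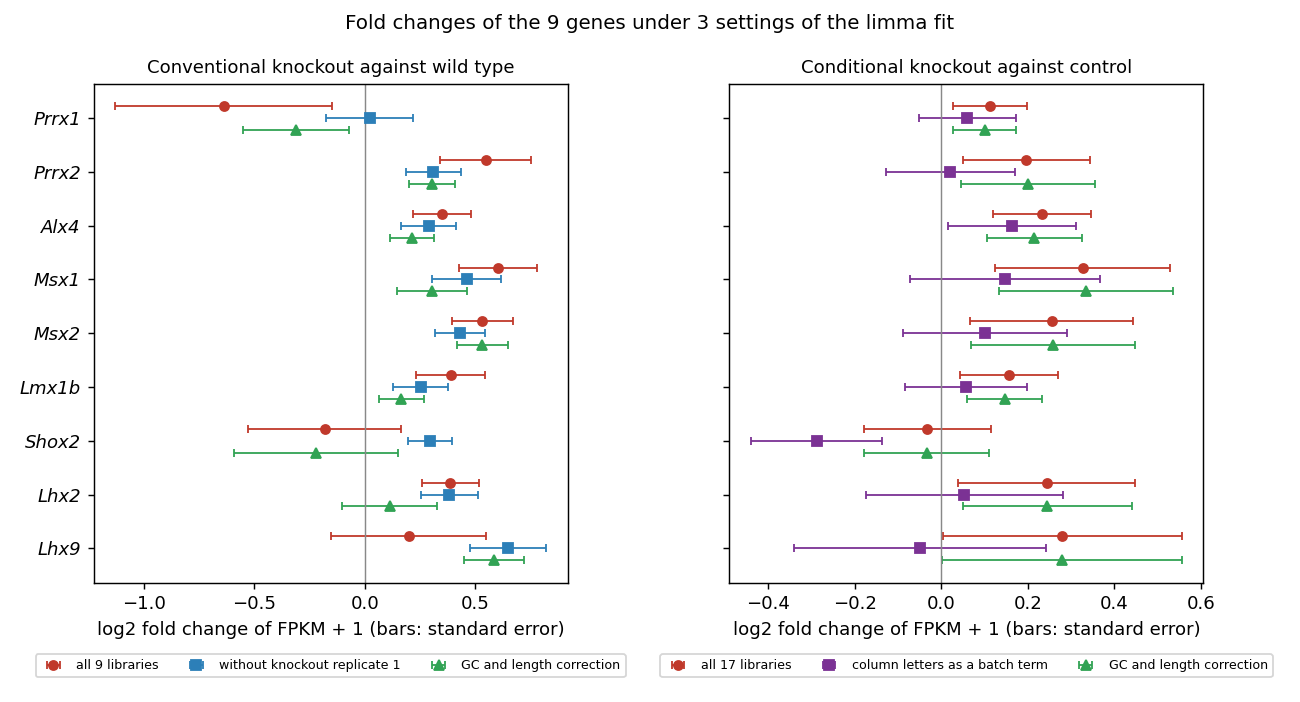
Log2 fold changes with standard errors of the 9 genes for knockout against wild type (left) and knockout against control (right), each under 3 settings of limma. On the left, Prrx1 and Shox2 cross 0 when knockout replicate 1 is left out, while Msx2 stays between 0.43 and 0.53. On the right, the letters as a term move 8 of the 9 genes toward 0 or past it and Shox2 away from it.

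The paralogues of a pair varied together to different degrees. In the 17 conditional libraries, with each group's mean removed on the log2 scale, Msx1 and Msx2 had a Pearson r of 0.889 and a Spearman rho of 0.924, each with a permutation p of 1e-05, the smallest that 100000 permutations can give, and Pearson r was 0.88 without the 2 libraries farthest from the median. Over 6 relations the adjusted p was 3e-05 for r. Within the 9 OB libraries alone r was 0.971 (exact permutation p 3.03e-05). Lhx9 and Lhx2 had an r of 0.896 and a rho of 0.873 (permutation p 1e-05 each, adjusted 3e-05 for r), with 0.85 without the 2 farthest. Within OB their r was 0.738 (exact permutation p 0.0238, adjusted 0.0286) and dropped to 0.155 without the 2 farthest, so there it rests on those 2 libraries. Prrx1 and Prrx2 had an r of 0.598 (permutation p 0.0122, adjusted 0.0184) and a rho of 0.431, and r fell to 0.213 without the 2 farthest, so it too rests on them. Pairs that are not paralogues were not tested beside these. High correlation was not confined to paralogues: in the same 17 libraries Unc5b had an r of 0.95 with Msx2 and 0.972 with Prrx2.

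The ratio of the paralogues in FPKM set the pairs apart most in conventional knockout replicate 1. Msx1 was 3.99 to 4.97 times Msx2 in the other 8 conventional libraries and 4.68 times in knockout replicate 1, so this ratio was not displaced there. In the conditional libraries it ran from 2.87 to 4.85. Prrx1 was 1.48 to 2.75 times Prrx2 in the other 8 conventional libraries and 0.284 times in knockout replicate 1, with 1.33 to 2.30 in the conditional libraries. This ratio was also low in replicate 1 of wild type (1.65) and of the heterozygotes (1.48), against 2.28 to 2.75 in their replicates 2 and 3. Knockout replicates 2 and 3, at 1.68 and 2.14, lay below that range too. Lhx9 was 0.977 to 1.42 times Lhx2 in the other 8 conventional libraries, 0.53 times in knockout replicate 1 and 0.809 to 1.56 times in the conditional libraries. The genotype groups overlapped in all 3 ratios in both tables. For Lhx9 over Lhx2, the overlap of the conventional knockout with the other groups rested on replicate 1. Knockout replicates 2 and 3 were at 1.42 and 1.40, against at most 1.29 in wild type and 1.38 in the heterozygotes.

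**Figure D5:**
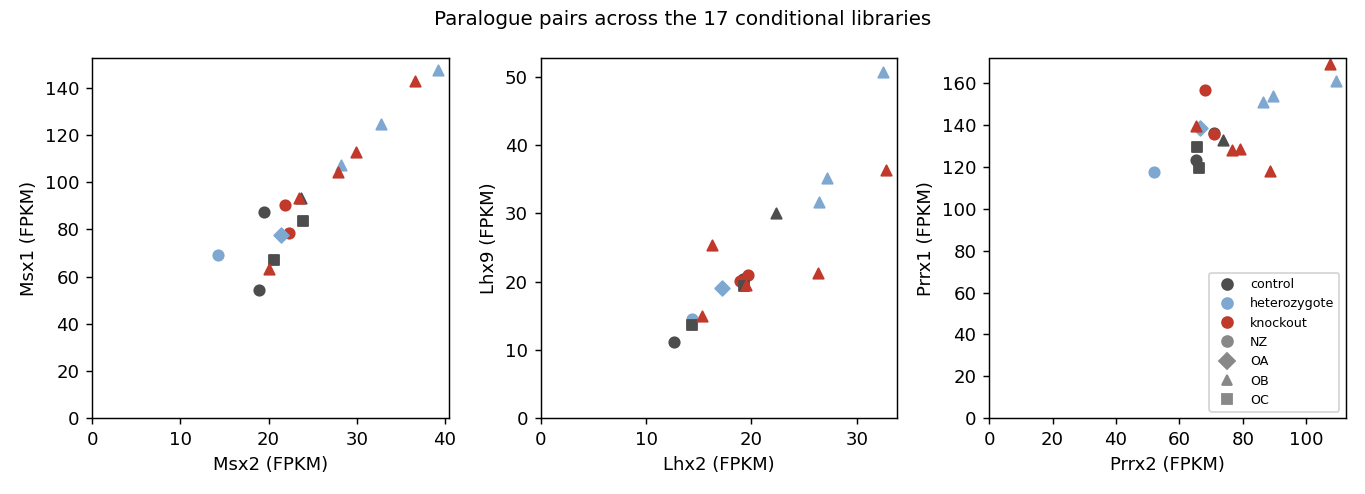
FPKM of 1 paralogue against the other in the 17 conditional libraries, for Msx1 and Msx2 (left), Lhx9 and Lhx2 (middle) and Prrx1 and Prrx2 (right); colour gives the genotype and marker shape the column letters, and all axes start at 0. The Msx points lie near a line through all genotypes, and the Prrx points scatter.

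The genes most alike in pattern were found among 12557 genes tested in both tables, with each group's mean removed on the log2 scale. Likeness was the smaller of the 2 Pearson correlations over the 9 conventional and the 17 conditional libraries. The conventional correlations include knockout replicate 1 and were not computed without it. All are given as descriptions, since differences in the composition of libraries can also produce likeness. Prrx2 and Msx2 were both most like Unc5b, a netrin receptor gene, at 0.969 and 0.924. Lhx9 was most like Dach1, a limb transcriptional cofactor gene, at 0.957. Prrx1 was most like Cdh11, a mesenchymal cadherin gene, at 0.903, followed by Trps1 at 0.895 and Psd3 at 0.891. Msx1 was most like Tgif1, a homeobox corepressor gene, at 0.899, Lmx1b most like Chd3 at 0.892 and Lhx2 most like Cyfip2 at 0.882. Alx4 was most like Fam220a, at 0.782.

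Other genes of the same pathways did not pass the test either. Their conventional knockout values include the deviating library and are not given without it. A list of 15 transcription factor genes held homeobox relatives of the 9 genes together with Hand2 and Tbx5, which are not homeobox genes. Of these 15, 11 were tested, and limma called 0 in either knockout comparison. In the conventional knockout 6 of 11 were above 0, with a median log2 fold change of 0.12. In the conditional knockout 8 of 11 were above 0, with a median of 0.05. Meis1, a factor of the proximal limb, had a lower mean in the conventional knockout, at 3.10 ± 0.705 against 4.61 ± 0.490 FPKM in wild type (n = 3 each), and stood at 5.41 ± 1.21 (n = 7) against 6.19 ± 0.998 (n = 5) in the conditional table. Its paralogue Meis2 stood at 4.79 ± 1.53 against 7.03 ± 0.505 FPKM in the conventional table.

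Of the 12 limb signals, 11 were tested and 0 called; 7 of 11 were above 0 in the conventional knockout (median 0.14) and 8 of 11 in the conditional knockout (median 0.09). Fgf8, the FGF of the apical ridge, stood at 2.87 ± 0.101 FPKM in the conventional knockout against 1.07 ± 0.282 in wild type (n = 3 each), which is 0.91 on the log2 scale (SE 0.18), with an adjusted p of 0.256 in limma. In the conditional table Fgf8 stood at 1.35 ± 0.526 (n = 7) against 1.54 ± 0.826 FPKM (n = 5), with a log2 fold change of -0.08. Bmp4, an upstream signal of the Msx genes, stood at 21.9 ± 1.45 against 21.6 ± 1.52 FPKM in the conventional table and at 20.5 ± 2.29 against 18.1 ± 1.69 in the conditional table.

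All 12 genes that report limb signals were tested and 0 were called; 8 of 12 were above 0 in the conventional knockout (median 0.13) and 7 of 12 in the conditional knockout (median 0.06). The FGF response genes Dusp6 and Etv4 stood at 41.9 ± 0.775 against 31.6 ± 1.01 FPKM and at 18.1 ± 5.93 against 11.5 ± 0.437 in the conventional table (n = 3 each). Id1, a BMP response gene, stood there at 209.2 ± 35.2 against 162.2 ± 9.86 FPKM. The adjusted p was 0.452 for Dusp6 and 0.596 for Etv4 and Id1 in limma with Benjamini-Hochberg adjustment. In the conditional table the log2 fold changes of Dusp6, Etv4 and Id1 were 0.11, 0.14 and 0.07.

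Genes linked to LIM homeodomain proteins, which are Ldb and Ssbp cofactors together with Lmo genes and Rlim, were also not called, 0 of 9 in either table. Their medians, taken over all 9 whatever their role, were -0.06 and -0.04. Ldb1, the main bridging cofactor, stood at 153.9 ± 34.4 FPKM in the conventional knockout against 121.0 ± 6.01 in wild type (n = 3 each), and at 142.7 ± 10.7 (n = 7) against 131.8 ± 6.26 in the conditional control (n = 5). Ldb2 stood at 22.4 ± 4.80 against 28.6 ± 1.44 FPKM in the conventional table. Ssbp4, an Ldb-binding partner, had the smallest p of this list in the conditional table, at 37.2 ± 3.12 (n = 7) against 43.0 ± 3.44 FPKM (n = 5), with an adjusted p of 0.289 in limma.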

How the data were processed

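FPKM values were used as the authors deposited them, in 2 tables, one per strategy. RNA was extracted from forelimbs with RNAzol and made into libraries with a stranded mRNA kit, per the labels' protocols. The tools were Cufflinks, TopHat2, Bowtie2 and bcl2fastq on build mm10, per the submitters' processing notes; versions, annotation, strand setting and any scaling beyond FPKM are not given in the sources used here. No counts are given, so depth is unknown; steps among low values gave relative depths of 0.773 to 1.0 of the first library (conventional) and 0.581 to 1.11 (conditional), from noisy steps. FPKM does not correct for GC content or for the makeup of the RNA.

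Each table was fitted on its own with limma 3.58.1 (R 4.3.3) on log2(FPKM + 1), for genes whose mean over the table reached 1 FPKM (12717 and 12918), with the 3 groups sharing 1 spread and eBayes with a trend, and p-values adjusted by Benjamini-Hochberg over all genes tested in each of 6 comparisons. Fold changes are on the log2(FPKM + 1) scale and understate low genes such as Alx4. The fit was tested on simulated data. The 9 genes, the gene lists and the rule naming up to 4 genes per list by smallest p were chosen with earlier results of these data known. Named outside that rule, after their values were seen, are Ext2 and Rsrc1, as overlapping genes. Gene positions, transcript GC and length come from GENCODE M21, in which 95.7% of symbols had a transcript. Correlations used 100000 permutations, or all pairings for 9 libraries (scipy 1.17.1).

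Replicate numbers paired the conventional libraries: deviations from group means correlated above 0.1 in 9 of 9 same-number pairs, from 0.244 to 0.717, and replicate 1 alone carried other column letters. Alternatives were a pseudocount of 0.1, no filter, upper quartile scaling, a replicate block, the 2 groups alone, column letters as a term, array weights, each replicate left out and, added after seeing the data, a GC and length correction with and without the block and the counts of separated groups without conventional knockout replicate 1. Results for some genes of the lists and matches are not reported here.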

Additional observations from a re-analysis of the deposited data

How the results depend on the processing

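The count of 0 genes called among the 9 held in all 6 comparisons under each alternative run, except that array weights called 6 in the conventional knockout against wild type. The replicate block, which treats conventional libraries of the same number as pairs, left that count at 0 there and changed no call among the 9. With the GC and length correction as well, the fold change of Msx2 was 0.53 (adjusted p 0.0676 in limma). In the conditional table the numbers did not pair the libraries (4 of 15 same-number pairs above 0.1, median 0.025). All-gene calls moved more than those of the 9: in the conventional knockout against wild type from 1 (replicate block, no filter, 2 groups alone) through 8 (column letters), 63 and 79 (GC and length correction, with and without the block) to 1186 (array weights); against the heterozygote to 3 and 162; in the conditional knockout against control from 17 to 125, and against the heterozygote from 5 to 27.

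Directions changed for some of the small fold changes. Conventional knockout against wild type: Shox2 was 0.21 with array weights, and with each library left out Prrx1 ran from -1.06 to 0.023, Shox2 from -0.43 to 0.30 and Lhx9 from -0.034 to 0.65. Against the heterozygote: Shox2 was 0.20 with array weights, and with each library left out Prrx1 ran from -0.97 to 0.11, Shox2 from -0.46 to 0.26 and Lhx9 from -0.13 to 0.56. Conventional heterozygote against wild type, libraries left out: Prrx1 ran from -0.24 to 0.057, Alx4 from -0.021 to 0.077, Lmx1b from -0.025 to 0.16, Shox2 from -0.032 to 0.10, Lhx2 from -0.014 to 0.21 and Lhx9 from -0.096 to 0.20. Conditional knockout against control: Shox2 was 0.018 with the replicate block, 0.013 with the block and the GC correction and 0.13 with array weights, and ran from -0.16 to 0.083 with libraries left out, while Lhx9 was -0.049 with column letters. Conditional heterozygote against control: Shox2 was -0.0028 with column letters. Conditional knockout against heterozygote: with the block, alone and with the GC correction, Prrx1 was 0.016 and 0.0081 and Prrx2 -0.026 and -0.012; Prrx2 was -0.043 with column letters and -0.13 with array weights. With libraries left out there, Prrx2 ran from -0.14 to 0.12, Alx4 from -0.020 to 0.086, Msx1 from -0.22 to 0.046, Msx2 from -0.21 to 0.14 and Lhx2 from -0.28 to 0.0017. None of these was past the threshold, and the cause was not tested.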
